A study of Homo sapiens with 4 samples.

Results

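The genes described here are the G protein-coupled receptor genes whose symbol is GPR followed by a number, with a trailing letter allowed. Of the 1648 genes in the deposited expression table, 10 carry such a symbol: GPR25, GPR34, GPR35, GPR63, GPR82, GPR85, GPR132, GPR137B, GPR160 and GPR162. The cells were HL-60, an established human leukemia line, and they had been kept for 4 days with 1 µM all-trans retinoic acid (ATRA) or with the same volume of its solvent, ethanol (control). Poly(A) RNA was sequenced from 2 ATRA-treated and 2 control samples, all from this 1 line, and the labels do not state whether replicates were grown as separate cultures, so the spread given may be technical. The table held only genes that the authors had selected for a difference between the groups, so each GPR gene in it had been selected on this contrast, and its change is described below without a test. GPR genes outside the table have no value here.

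G protein-coupled receptors cross the plasma membrane several times and pass the binding of a ligand outside the cell to heterotrimeric G proteins inside it. In myeloid cells the best known members guide migration toward chemokines, complement fragments and lipid mediators. The name GPR was given to receptors found by sequence before a ligand was known, so these genes share a naming history and not 1 function, and several have no agreed ligand. ATRA acts through nuclear receptors that switch genes on and drives promyelocytic cells toward granulocytes.

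Values are normalised read counts, that is whole counts restored from the deposited group means and divided by the size factor of their library. The libraries of a group are called a and b, because their order carries no link to the numbering of replicates in the labels. Reads in the listed genes came to between 3288055 and 5576516 per library. Intervals of a fold change are exact 95% intervals and cover counting error only. With 2 samples against 2, an exact two-sided permutation test cannot give a p under 0.333, so no p is given for a gene. In bulk RNA, a change in the share of cells that use a gene and a change in RNA per cell cannot be told apart.

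Of the 10 GPR genes, 8 were higher and 2 were lower in ATRA-treated cells, beside 61.8% higher and 38.2% lower among all listed genes. Over 4-fold higher were 5 of the 10 (28.9% of all listed genes), namely GPR82, GPR34, GPR25, GPR162 and GPR35. Over 4-fold lower were 0 of the 10 (11.2% of all listed genes). The median log2 fold change was 1.84 for the GPR genes, with GPR25 entered at its lower bound, and 1.23 for all listed genes. Every ATRA library lay on the same side of both control libraries in 10 of the 10, which also held for 100% of the listed genes. Libraries of the same group lay a median of 1.25 times apart for the GPR genes with ATRA and 1.18 times for all listed genes. In the controls these distances were 1.25 times for the 9 GPR genes with reads in both libraries and 1.24 times for the listed genes.

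**Figure D1:**
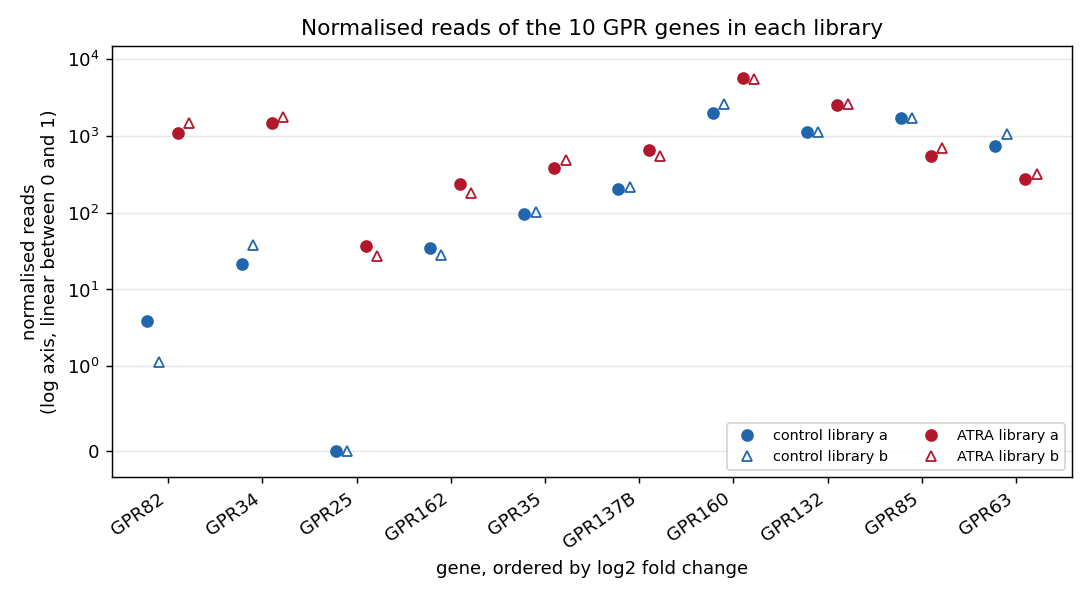
Normalised reads (y axis, logarithmic above 1 and linear between 0 and 1) of the 10 GPR genes (x axis, ordered by log2 fold change) in each of the 4 libraries. Filled circles are library a and open triangles library b, blue for control and red for ATRA. GPR82 and GPR34 moved from between 1.117 and 38.0 normalised reads in the controls to between 1109 and 1791 with ATRA, GPR25 was at 0 in both controls, and GPR85 and GPR63 were lower with ATRA.

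The largest differences belonged to a pair of neighbours on the X chromosome, GPR82 and GPR34. Both are class A receptors related in sequence to the P2Y12-like nucleotide receptors. GPR34 responds to lysophosphatidylserine and is known from microglia, macrophages and mast cells, while GPR82 has no agreed ligand. GPR82 (ENSG00000171657, GRCh37 chromosome X, 41583434 to 41589383, plus strand) had 3.89 and 1.117 normalised reads in the controls and 1109 and 1461 with ATRA. The controls rested on 5 reads in all, so the gene was close to the limit of detection there. The group means were 2.504 ± 1.96 and 1285 ± 249 (SD, n = 2), so that GPR82 was 513-fold higher (95% bounds 210.2 and 1514). On the log2 scale the fold change of 9.004 became 10.17 when control a was left out and 8.37 when control b was. It ranked 19 by fold among the 1018 higher genes of the table.

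GPR34 (ENSG00000171659, GRCh37 chromosome X, 41548226 to 41556528, plus strand) had 21.4 and 38.0 normalised reads in the controls and 1471 and 1791 with ATRA. The lower ATRA library stood 38.7 times above the higher control library. GPR34 was 54.9-fold higher, from 29.7 ± 11.7 to 1631 ± 226 (SD, n = 2), with a counting interval from 42.8 to 74.0, and ranked 86 of 1018. The 2 genes end and start 26906 bases apart, on the same strand, inside CASK, a large gene for a scaffold kinase on the opposite strand. Neither shared an exonic base with CASK, and CASK itself was not in the table.

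Letters upstream of GPR82 are shown because it had the largest change, and those of GPR85 because it was among the 2 lower genes. They are the bases before the RefSeq start, 5′ to 3′ on the gene's strand, with matches to 6 motifs in capitals. The GPR82 stretch is chrX:41583184-41583433 (plus strand) and the GPR85 stretch chr7:112727834-112728029 (minus strand, cut at the edge of the annotated gene), both placed on GRCh37 by an exact and unique match.
GPR82: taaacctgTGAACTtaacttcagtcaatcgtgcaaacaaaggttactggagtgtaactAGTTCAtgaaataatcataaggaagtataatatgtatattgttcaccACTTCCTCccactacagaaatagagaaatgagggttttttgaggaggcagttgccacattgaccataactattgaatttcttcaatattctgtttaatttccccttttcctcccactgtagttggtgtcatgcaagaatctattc
GPR85: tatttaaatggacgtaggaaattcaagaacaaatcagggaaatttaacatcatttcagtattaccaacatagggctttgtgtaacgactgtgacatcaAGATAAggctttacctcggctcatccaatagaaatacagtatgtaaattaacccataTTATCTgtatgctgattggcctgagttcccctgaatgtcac
The capitals in GPR82 are AGTTCA, a variant of the half-site of retinoic acid receptors, at positions -242 to -237 from the start (minus strand) and -192 to -187 (plus strand), and GAGGAAGT, the core of PU.1 sites, at -145 to -138 (minus strand). Those in GPR85 are AGATAA, the core of GATA sites, at -152 to -147 (plus strand) and -95 to -90 (minus strand). These positions count from a start 54 bases inside the annotated gene. The other GPR85 window, not printed, held AGATAA at -227 to -222 (plus strand) and GAGGAAGT. GPR63, the more lowered gene (3.01-fold against 2.77-fold for GPR85), had no match to the 6 motifs in its window. Neither had GPR25 or GPR160, both higher with ATRA.

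Of the 10 genes 8 had a promoter window of 250 bases before to 50 after the start in the RefSeq table (GRCh38.p14), and GPR34 and GPR162 had none. GPR35 and GPR85 had 2 windows each, and a match in either was counted. Both strands were searched, and no 2 of the motifs overlapped in a printed stretch. AGTTCA stood in 1 of the 8 genes (GPR82) and in 10.5% of 34943 human windows. AGGTCA, the usual half-site, stood in 1 (GPR35) and in 13.8% of windows. GAGGAAGT stood in 3 (GPR82, GPR85 and GPR137B, for GPR85 only in the window not printed) and in 2.59% of windows. TGTGGT, the core of RUNX sites, stood in 2 (GPR132 and GPR137B) and in 13.1%, TTGCNNAA for C/EBP factors in 1 (GPR132) and in 10.5%, and AGATAA in 1 (GPR85) and in 10.4%. These are matches of letters and not measured binding. The 250 bases before the start of GPR82 were 36% G or C, and those of the lower gene GPR85 37.2% and 39.2% in its 2 windows. GPR137B had 83.2%, and the median of all windows was 58%.

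GPR25 was read with ATRA only. It is a class A receptor known mainly from lymphocytes. GPR25 (ENSG00000170128, GRCh37 chromosome 1, 200842109 to 200843306, plus strand, 1 exon) had 0 reads in both controls and 36.4 and 26.9 normalised reads with ATRA, from 40 and 27 reads. A count of 0 in the controls allows a mean of up to 1.56 normalised reads (3 counts over both libraries), so GPR25, at its measured ATRA mean, was at least 20.3-fold higher. With the counting error of its 67 ATRA reads included, the exact 95% lower limit of the ratio was 16.2. The bound from the floor was 4.34 on the log2 scale and became 3.24 with control a left out and 3.44 with control b left out. This was the lowest level of the 10 genes in either group, and whether control cells hold some GPR25 RNA could not be seen at this depth.

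The ATRA-treated and control values of the next genes, GPR162 and GPR35, differed by a smaller factor. GPR162, a receptor without an agreed ligand (ENSG00000250510, GRCh37 chromosome 12, 6930790 to 6939136), had 35.01 and 27.9 normalised reads in the controls and 236.6 and 183.5 with ATRA. It was 6.67-fold higher, from 31.5 ± 5.00 to 210.03 ± 37.5 (SD, n = 2), with a counting interval from 5.09 to 8.85. GPR35, which responds to kynurenic acid and has been studied in gut and in neutrophils (ENSG00000178623, GRCh37 chromosome 2, 241544847 to 241572576), had 96.3 and 101.7 normalised reads in the controls and 386.7 and 493.7 with ATRA. It was 4.45-fold higher, from 99.0 ± 3.83 to 440.2 ± 75.7 (SD, n = 2), with an interval from 3.79 to 5.21. GPR35 lay just above the 4-fold line, with a log2 fold change of 1.97 when ATRA library b was left out, and GPR137B was the next below it.

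In 3 genes the control cells already held a substantial number of reads and the ATRA-treated cells 2- to 3-fold more. GPR137B encodes a membrane protein of lysosomes that takes part in nutrient signalling through mTORC1 (ENSG00000077585, GRCh37 chromosome 1, 236305805 to 236385165). GPR137B had 204.2 and 219.0 normalised reads in the controls and 657.8 and 556.5 with ATRA, a 2.87-fold difference. GPR160, an orphan receptor by most accounts (ENSG00000173890, GRCh37 chromosome 3, 169755783 to 169803180), had 2031 and 2585 normalised reads in the controls and 5641 and 5501 with ATRA. GPR160 was 2.41-fold higher, from 2308 ± 391 to 5571 ± 98.9 (SD, n = 2), and its 2 control libraries lay 1.27 times apart. GPR132 is a receptor of lymphocytes and macrophages that responds to oxidised fatty acids (ENSG00000183484, GRCh37 chromosome 14, 105515732 to 105531782). GPR132 had 1146 and 1133 normalised reads in the controls and 2511 and 2600 with ATRA. It was 2.24-fold higher, from 1140 ± 9.49 to 2556 ± 62.8 (SD, n = 2), the smallest fold change of the 8 higher genes.

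The 2 lower genes, GPR85 and GPR63, are both known mainly from brain. GPR85, one of the highly conserved receptors called SREB (ENSG00000164604, GRCh37 chromosome 7, 112718386 to 112727833, minus strand), had 1736 and 1746 normalised reads in the controls and 553.2 and 706.1 with ATRA. It was 2.77-fold lower, from 1741 ± 7.605 to 629.6 ± 108 (SD, n = 2), with a counting interval from 2.61 to 2.97. GPR63 (ENSG00000112218, GRCh37 chromosome 6, 97242001 to 97285353, minus strand) had 744.9 and 1062 normalised reads in the controls and 278.4 and 321.1 with ATRA. It was 3.01-fold lower, from 903 ± 224 to 299.8 ± 30.2 (SD, n = 2), and its log2 fold change of -1.59 ranged from -1.82 to -1.31 when 1 library was left out. Of the transcript of GPR63, 223 bases (3.74%) lie in exons of a noncoding gene on the other strand, and whether counting used strand is not given in the sources used here.

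**Figure D2:**
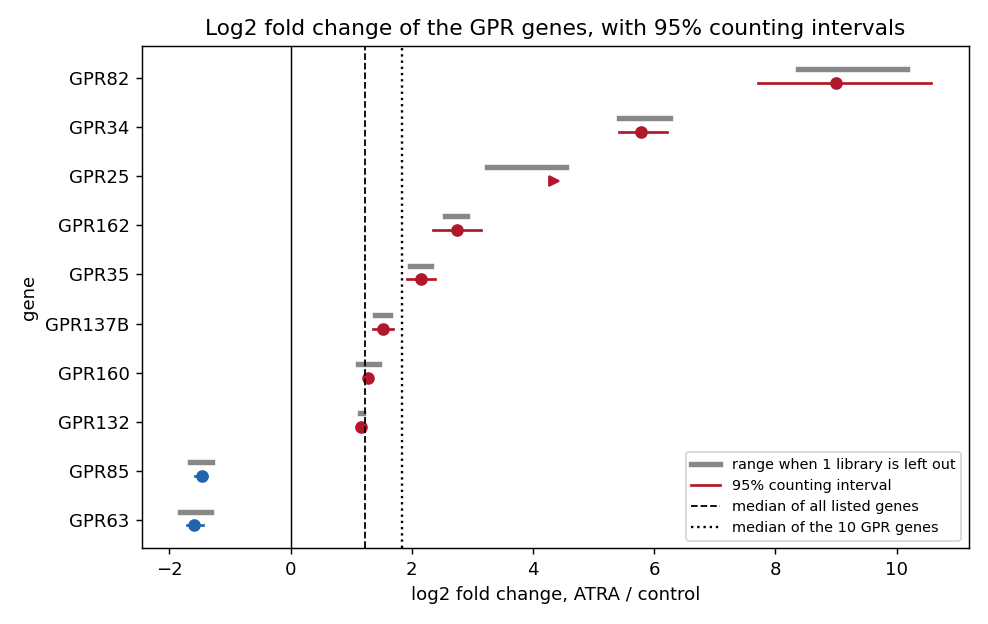
Log2 fold change of ATRA over control (x axis) for the 10 GPR genes (y axis). Points and thin lines are the ratio of means and its 95% counting interval, the triangle of GPR25 is its ATRA mean over the floor of 3 counts, drawn without its interval, grey bars span the values obtained when 1 library was left out, and vertical lines are the medians of the GPR genes (1.84) and of all listed genes (1.23). No grey bar crosses 0, and none could, because the libraries of the groups did not overlap for any of these genes.

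Levels of different genes were compared per kb of the annotated canonical transcript. In control cells GPR160 stood highest with 1176 normalised reads per kb, followed by GPR85 with 539, GPR132 with 312, GPR63 with 151, GPR137B with 104, GPR35 with 30.0, GPR34 with 15.4, GPR162 with 12.6, GPR82 with 0.755 and GPR25 with 0. The libraries of GPR34 (11.1 and 19.7 per kb) and GPR162 (14.03 and 11.2 per kb) overlapped, so these neighbours in the order did not differ beyond their spread. With ATRA GPR160 was again highest with 2839 per kb. GPR34 followed with 847, above GPR132 with 699, and GPR82 was the fourth with 387, ahead of GPR137B with 299. GPR85, the second in the controls, was the sixth with 195 per kb, and GPR63, the fourth in the controls, was the ninth with 50.2 per kb. GPR35 with 133, GPR162 with 84.2 and GPR25 with 26.4 filled the other places, and no neighbours overlapped between their libraries. The reads of all 10 genes together came to 6019 and 6913 normalised reads in the controls and 12881 and 13641 with ATRA. GPR160 alone made up 33.8% and 37.4% of these reads in the controls and 43.8% and 40.3% with ATRA.

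**Figure D3:**
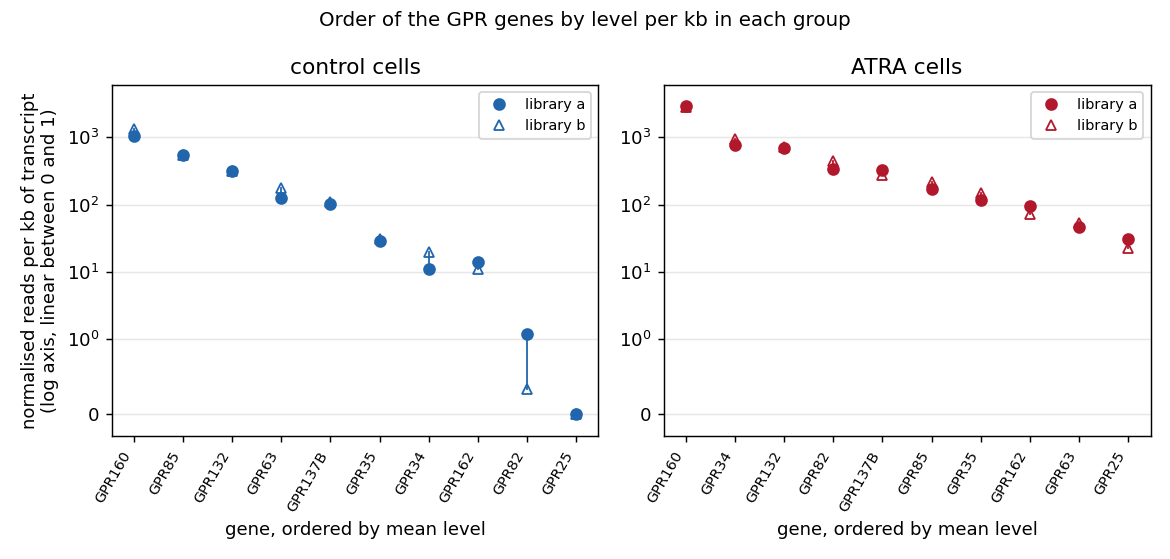
Normalised reads per kb of transcript (y axis, logarithmic above 1 and linear between 0 and 1) of the 10 GPR genes in control (left) and ATRA-treated cells (right), each panel ordered by mean level. Circles are library a and triangles library b, joined by a line. GPR34 and GPR82 are the seventh and the ninth in the controls and the second and the fourth with ATRA, where GPR85 and GPR63 stand lower than in the controls.

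The gene structures differed among the 10. In 7 of them (GPR25, GPR34, GPR35, GPR63, GPR82, GPR85 and GPR160) the whole coding sequence lies in 1 exon of the canonical transcript, as it does in 4.74% of the 1499 listed genes with a coding transcript. GPR132 has 2 coding exons, GPR162 has 4 and GPR137B has 7. Their nearest coding genes were compared as well, since adjacent genes can share regulatory regions or reads. Of 20 such genes, 5 pairs with a GPR gene had both partners in the table, and in 5 of 5 the partners changed in the same direction, beside 81.3% of 187 adjacent pairs of listed genes. One is the pair of GPR34 and GPR82. CD4, the coreceptor also found on monocytes, lies 825 bases before GPR162 on the same strand and had 4679 ± 1670 normalised reads in controls and 15012 ± 2071 with ATRA (SD, n = 2), so it was 3.21-fold higher beside the 6.67-fold of GPR162. The part of reads running on from CD4 into GPR162 was not tested. P3H3 overlaps GPR162 and CAPN10 overlaps GPR35, both on the same strand and without a shared exonic base. Neither was among the listed genes, and reads shared with them were not tested. GPR25 stood between CAMSAP2, 2.88-fold higher, and C1orf106, 2.46-fold higher. NDUFAF4, an assembly factor of the respiratory chain and the neighbour of GPR63, was 2.47-fold lower.

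For the genes with over 16-fold differences, the listed genes with the most similar values were taken by the Euclidean distance of log2(normalised reads + 1) over the 4 libraries. For GPR82 these were DAPK2 (distance 0.854), CD36 (1.23) and SOCS3 (1.48). DAPK2, a kinase linked to cell death, had 3.89 and 1.117 normalised reads in the controls, from the same counts as GPR82, and 882.5 and 845.7 with ATRA. For GPR34 they were the vault protein gene MVP (0.929), SRCIN1 (0.985) and TNNI2 (1.01). MVP had 29.2 and 24.6 normalised reads in the controls and 1557 and 1224 with ATRA. For GPR25 they were SLC44A3 (0.148), CAPN5 (0.610) and MEDAG (1.17), all with 0 reads in both controls. Each match rests on 4 libraries that differ mainly by treatment.

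The GPR genes were set beside other receptors and the proteins that carry their signals. Of 144 other G protein-coupled receptors on 4 lists, 20 were in the table, 15 higher and 5 lower, with a median log2 fold change of 2.69. Among all listed genes 61.8% were higher and the median was 1.23, and how many unselected receptors would be expected in the table was not computed. Of the 34 chemoattractant and inflammatory receptors 8 were in the table, 7 higher and 1 lower (median 3.40). The chemokine receptors CXCR5 and CCR3 were 278-fold and 182-fold higher, with 4 and 11 reads in the controls. These folds depended on single control libraries: CXCR5 was 179.5-fold higher without control a and 619-fold without control b, and CCR3 108.6-fold and 561-fold. CCR8 was 55.8-fold lower (95% counting bounds 27.4 and 127.1) with 8 reads left in the ATRA libraries, and the fold was 206.0 without ATRA library a and 32.3 without b. Of the 34 lipid, prostanoid and fatty acid receptors 7 were in the table, 5 higher and 2 lower (median 1.77). The cysteinyl leukotriene receptor CYSLTR2 was 13.02-fold higher and the succinate receptor SUCNR1 8.62-fold higher. The cannabinoid receptors CNR1 and CNR2 went in opposite directions, CNR1 at a ratio of 217 over only 2 control reads (95% counting bounds 56.2 and 1690.2), CNR2 4.50-fold lower. Without control a CNR1 had only a bound of 63.0-fold, and without control b the ratio was 108.6. CNR2 was 7.72-fold lower without ATRA library a and 3.18-fold lower without ATRA library b.

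Among the receptors for nucleotides, amines, proteases and peptides 4 of 43 were in the table, 3 higher and 1 lower (median 3.40). P2RY13 and P2RY14 belong to the P2Y12-like group to which GPR34 and GPR82 are related. P2RY13 had 17.6 ± 8.34 normalised reads in the controls and 2544 ± 378 with ATRA (SD, n = 2), 144.8-fold higher, and P2RY14 was 21.0-fold higher. Without control b these became 218-fold and 37.7-fold, and without control a 108.4-fold and 14.6-fold. The adenosine receptor ADORA3 was 5.27-fold higher and P2RY2 1.91-fold lower. Of 33 adhesion and frizzled receptors only FZD3 was in the table, 3.26-fold lower.

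Of 95 signalling genes on 3 lists, 24 were in the table, 20 higher and 4 lower, and their median log2 fold change was 1.45. For all listed genes 61.8% were higher and the median was 1.23. Of 28 G protein subunits 4 were in the table, 3 higher and 1 lower (median 1.87). GNG2, a gamma subunit, was 173.9-fold higher, from 78.8 ± 4.03 to 13712 ± 1933 normalised reads (SD, n = 2). The inhibitory alpha subunits GNAI1 and GNAI2 were 6.51-fold and 2.05-fold higher, and GNA15, an alpha subunit of blood cells, was 2.76-fold lower. Of 30 RGS proteins, receptor kinases and arrestins the table held 6, each of them higher (median 2.85). They included RGS2 (19.3-fold), RGS1 (7.998-fold), RGS12 (7.56-fold), which speed the switching off of G proteins, and the arrestin ARRB1 (6.88-fold). RGS1 was 12.7-fold higher without control a and 5.84-fold higher without control b. Of 37 effectors 14 were in the table, 11 higher and 3 lower (median 1.34). Only the 4 with the largest changes are named, and the 3 lower ones ranked below them. The adenylate cyclase ADCY4 was 10.9-fold higher, PIK3CG and its partner subunit PIK3R5, the phosphoinositide kinase driven by G proteins in leukocytes, were 8.82-fold and 5.34-fold higher, and the phospholipase PLCB2 was 6.12-fold higher.

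**Figure D4:**
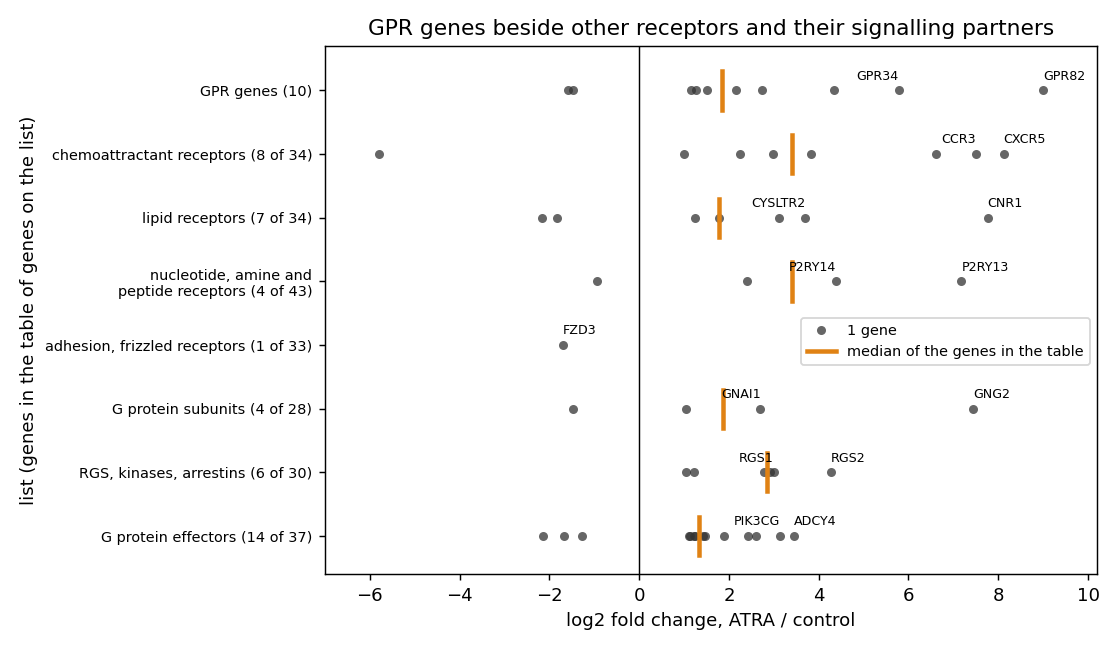
Log2 fold change of ATRA over control (x axis) for the 10 GPR genes and for the genes of 7 lists of receptors and signalling genes that were in the table (rows, with the number in the table of the number on the list). Each point is 1 gene, orange bars are medians, and the 2 highest genes of each row are named. Higher genes outnumber lower ones in each row except that of the adhesion and frizzled receptors, whose 1 gene is lower, and they do so among all listed genes too (1018 against 630).

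Markers of the cells that the culture could hold moved as well, beside 61.8% higher and 38.2% lower among all listed genes. Of 10 neutrophil maturation markers the table held 9, each higher, and their summed level was 11793 and 12236 normalised reads in controls a and b and 100514 and 94377 in ATRA libraries a and b. NCF4, 2.64-fold higher, alone held 8609 and 8837 of these reads in controls a and b, so the control sums mostly show that gene. Of 11 monocyte and macrophage markers the table held 5 (CSF1R, CLEC7A, MERTK, CD68 and CD4), each higher, with sums of 5937 and 3549 against 18311 and 15016. CD4 made up 98.7% and 98.6% of these sums in the controls and 90.2% or less with ATRA. CSF1R was 33.2-fold, CLEC7A 29.0-fold, MERTK 19.6-fold and CD68 14.4-fold higher. MERTK and CD68 were 52.5-fold and 26.6-fold higher without control a, and 12.07-fold and 9.83-fold without control b. CD14 and CD163 were not in the table. Of 10 eosinophil, basophil and mast cell markers the table held 4, each lower, with sums of 215034 and 93814 in the controls against 38229 and 10773 with ATRA, nearly all of it from PRG2, whose libraries lay far apart within each group. Of 12 lymphoid markers CD3E was higher and NKG7 lower, and the promyelocyte (6) and the erythroid and megakaryocyte (10) markers had 0 in the table. Whether these shifts have a part in the changes of GPR34, GPR25 or any other GPR gene was not tested.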

How the data were processed

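RNA-seq libraries came from 2 ATRA-treated and 2 control HL-60 samples. Per the paper's methods and the notes of the submitters on processing, the authors trimmed adapters (cutadapt), discarded ribosomal reads (Bowtie), quantified reads with RSEM 1.2.7 against a UCSC transcriptome of build hg19 (GRCh37) and compared the groups with DESeq2 1.4.5. The single table deposited by the authors lists 1648 genes. Its 3 columns of means, a signal made by the authors, are counts divided by size factors and averaged over all libraries or over a group. The deposited adjusted p-value column was read only to see how genes had been selected: 1645 lay under 0.01 and 3 above it, none of them a GPR gene. The paper also set a limit of 0.9 on the size of the log2 fold change. Such a limit would shape the medians and the shares over 4-fold. Whether all listed genes met it was not checked. The authors' fold changes, log2 fold changes and p-values were not used or printed.

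The 73360 digits of the means held 0 zeros, and 20.2% of them were 1, so each 0 was taken to have been written as 1. A group mean is the average of 2 whole counts over their size factors. Size factors of 1.10 and 1.00 (ATRA libraries a and b) and 1.03 and 0.895 (control a and b) explained 24 of 24 distinct low means with ATRA and 51 of 51 in controls. Exactly 1 pair of counts was found in both groups for 1648 genes, and these gave back the mean over all libraries in 1648. Tested on simulated data, the search returned all counts of 100% of 1648 genes. Folds are ratios of restored means. A group at 0 was set to 3 counts over its libraries. Intervals of ratios are Clopper-Pearson intervals of the summed counts (scipy 1.17.1).

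No model was fitted across genes, because the spread would be estimated from genes selected for a difference. Positions, exons and transcript lengths are from GENCODE v44lift37 on GRCh37, and 1538 of 1648 listed symbols had a length. The GPR genes and the lists were chosen with earlier results of these data known. Named were all 10 GPR genes, up to 4 genes of each receptor or signalling list by absolute log2 fold change, the 3 most similar genes of each gene over 16-fold, and listed neighbours, except 1 gene that is not reported here. Alternatives were the printed means, a pseudocount of 1, no size factors, at least 10 counts in each group, leaving out each library and, chosen after seeing the data, leaving out genes with exons that overlap those of another gene and leaving out each library for list genes and neighbours.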

Additional observations from a re-analysis of the deposited data

How the results depend on the processing

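No direction of a GPR gene was reversed under the printed means, a pseudocount of 1, raw counts without size factors or the loss of any 1 library. The loss of 1 library could not have reversed a direction, because the libraries of the groups did not overlap for 100% of the listed genes. Nor could the other settings. A pseudocount of 1 is added to both means and keeps their order. The nearest libraries of the groups lay at least 2.13 times apart (GPR160), which size factors between 0.895 and 1.10 cannot undo. Digits of 0 printed as 1 change the means by far less than the difference between the groups. Of 70 alternative log2 fold changes of single GPR genes 5 moved by more than the spread between libraries. For GPR25, with a lower bound of 4.34, these were 4.98 with the means as printed, 5.03 with a pseudocount of 1, and 3.24 and 3.44 as bounds without control library a or b. For GPR132 it was 1.29 without size factors against 1.16. The 4.98 and 5.03 of GPR25 are not measured folds. Both rest on a control value of 1 in place of 0, from the misprinted digit and from the pseudocount. The spread comes from the same libraries, so leaving 1 out could hardly count as moved where both libraries of a group held reads. GPR82, which ranged from 8.37 to 10.17, did not count as moved. With at least 10 counts in each group 8 genes remained and 3 were over 4-fold higher in place of 5, since GPR82 and GPR25 were left out. Without GPR63, whose exons overlap those of another gene, 1 gene was lower in place of 2 and the median log2 fold change was 2.15. When 1 library was left out, the counts of genes higher (8) and lower (2) could therefore not move, and that of genes over 4-fold lower (0) did not. The number over 4-fold higher was 4 to 5, GPR35 being lost without ATRA library b. Leaving out 1 library for the list genes and neighbours, chosen after seeing the data, reversed none of them. It could not have, since their libraries did not overlap between the groups either. No list count moved with the printed means. No paired analysis was possible because the restored libraries carry no replicate number. Another scaling such as TMM was not run, as it needs the genes outside the table. The few control reads of GPR82 (5) and GPR25 (0) limit their fold changes.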
